A study of Mus musculus with 12 samples.

Results

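The Reg genes encode small secreted proteins with a C-type lectin fold. The 7 mouse genes carrying this family's symbols in the GENCODE M21 annotation (Reg1, Reg2, Reg3a, Reg3b, Reg3d, Reg3g and Reg4) were taken from a table of 53715 genes, and all 7 had a line in it. RNA-seq of mucosa from ileum and from colon of male C57BL/6J mice aged 8 weeks gave 12 libraries, 3 of control and 3 of Slc39a8-IEC KO mice for each tissue. The labels give the control genotype as Slc39a8-fl/fl and the KO genotype as the same floxed alleles with Villin-Cre, so both groups carry loxP sites and only the KO group is labelled with Cre. The methods of the study describe its controls as a mixture that also held heterozygous floxed, wild-type and Cre-only mice. Villin drives Cre in intestinal epithelial cells alone, and the other cells of the mucosa keep Slc39a8, which encodes a metal importer for manganese and zinc. The labels name no treatment. Since RNA came from whole mucosa, fewer cells of a type and less RNA per cell cannot be told apart in any level given here.

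In the gut, Reg3 proteins are released into the mucus and lumen by enterocytes and Paneth cells. REG3G binds peptidoglycan and kills Gram-positive bacteria, REG3B acts mainly on Gram-negative bacteria, and together they help keep microbes away from the epithelial surface. Their genes are switched on by bacterial signals through MYD88 and by IL-22 from innate lymphoid cells and T cells, which acts through STAT3. Reg4 marks enteroendocrine cells and deep crypt secretory cells, while Reg1 and Reg2 are best known from pancreatic acinar cells and from regeneration.

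The total expected count was 16749138 to 27903083 per library, and 16558 genes passed the filter on low counts. Levels are given as CPM, read counts scaled to a common library size with edgeR's TMM factors. Slc39a8 was lower in every KO library than in every control library of the same tissue: 6.73 ± 1.59 CPM (SD, n = 3) in ileal control and 3.25 ± 0.953 in ileal KO libraries, and 20.4 ± 0.393 and 8.92 ± 2.25 CPM in colon. It had the smallest p of all genes over both tissues, but its adjusted p of 0.382 (edgeR) was above the threshold of 0.1 used throughout. Tissue labels fitted their markers: Fabp6, the ileal bile acid binding protein, was at 3360 to 7104 CPM in ileum and 5.75 to 26.8 in colon. The colonic carbonic anhydrase gene Car1 was at 14872 to 27102 CPM in colon and at 3.40 to 143 CPM in 5 ileal libraries, while ileal KO library 2 held 2630 CPM. Ileal control library 3 and ileal KO library 1 stood apart from the other 4 ileal libraries. They held almost no smooth muscle RNA (Acta2 7.13 and 4.88 CPM against 398 to 537), and are called the low-muscle libraries. Fitted differences of Reg genes that rest on ileum are also given without them.

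Of the 7 genes, 6 lie side by side on chromosome 6, between 78370657 and 78468872 (GRCm38), a stretch of 98216 bases with no other annotated gene inside. In order of position they are Reg3b (78370657 to 78373466, + strand), Reg3d (78375874 to 78378865, − strand), Reg3a (78380709 to 78383827, + strand), Reg2 (78395623 to 78408106, + strand), Reg1 (78422711 to 78428667, + strand) and Reg3g (78466269 to 78468872, − strand). Reg3b and Reg3g thus sit at opposite ends of the cluster. Reg4 lies alone on chromosome 3 (98222156 to 98236748, + strand). None of the 7 overlaps another gene. Aligned coding sequences were most alike for Reg1 and Reg2, with 82.5% identical bases, and Reg3b shared 76.4% with Reg3g. The least alike were Reg2 and Reg3g, at 62.8%. Even so, no stretch of 75 bases in the transcripts of Reg1, Reg3a, Reg3b, Reg3d, Reg3g or Reg4 occurred in a transcript of another gene, so reads of that length would not be shared. Of the 874 such stretches in Reg2, 54 (6.178%) also occurred in other genes, and its small counts are less certain for that reason.

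Reg3b was the most abundant of the family, and it was far higher in ileum than in colon. Ileal control libraries 1 to 3 held 53962, 65009 and 4463 CPM, and ileal KO libraries 1 to 3 held 6655, 27724 and 44179 CPM. Colonic control libraries held 3482, 3426 and 1407 CPM, and colonic KO libraries 568, 572 and 1670 CPM. Every ileal library was above every colonic library, although ileal control library 3 came within reach of the highest colonic values. Per base of transcript, Reg3b ranked 1st among all genes in 4 of the 6 ileal libraries, and 8th and 4th in the 2 libraries with little muscle RNA. It ranked 14th to 25th in colonic control and 19th to 76th in colonic KO libraries. The mean was 14.8 times as high in ileum as in colon in control mice and 28 times in KO mice. On the log2 scale, edgeR's quasi-likelihood test gave a colon versus ileum difference of -3.89 (SE 0.97, adjusted p = 0.0112) in control and -4.81 (SE 1.01, adjusted p = 0.00437) in KO mice. Leaving out the 2 ileal libraries gave -4.44 (SE 0.54) and -5.25 (SE 0.56).

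Reg3g followed the same pattern with a steeper step between the tissues. Ileal control libraries 1 to 3 held 25794, 36477 and 1741 CPM, and ileal KO libraries 2740, 10692 and 21804 CPM. Colonic control libraries held 661, 340 and 228 CPM, and colonic KO libraries 98.9, 107 and 391 CPM. The tissues did not overlap, and the same 2 ileal libraries were lowest. The ileal mean was 52.0 times the colonic mean in control mice and 59.1 times in KO mice. The log2 difference was -5.70 (SE 1.17, adjusted p = 0.00369, edgeR) in control and -5.88 (SE 1.18, adjusted p = 0.00323) in KO mice. Without the low-muscle libraries it was -6.26 (SE 0.69) and -6.34 (SE 0.69). With all libraries it was the largest fitted difference between tissues among the members with counts in every group, in control as in KO mice. Together Reg3b and Reg3g made up 0.630% to 8.74% of all counts in an ileal library and 0.0745% to 0.419% in a colonic library. They were 94.8% to 99.9% of the counts of the whole family in every library.

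**Figure D1:**
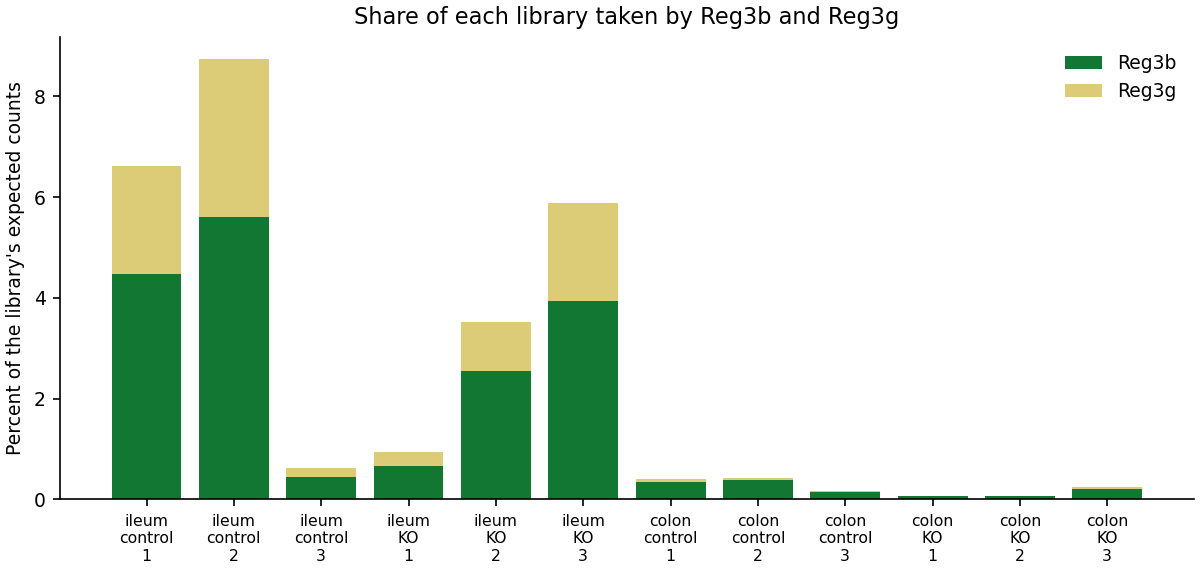
Percent of each library's expected counts assigned to Reg3b (green) and Reg3g (yellow), stacked, for the 12 libraries. Ileal libraries reach 8.74%, ileal control 3 and ileal KO 1 stay at 0.630% and 0.942%, and no colonic library passes 0.419%.

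The 130 bases before the RefSeq transcript start (GRCm38.p6) are shown for Reg3b and Reg3g, whose levels moved together over the libraries, and for their neighbours Reg3a, which did not move with them, and Reg2, which was higher in colon. Capitals mark 2 motifs searched on both strands of the 300 bases around each start: TTCNNNGAA, the spaced palindrome that STAT factors bind, and TATAAA, the core promoter box. The regions are chr6:78370755-78370884 (+) for Reg3b, chr6:78468875-78469004 (−) for Reg3g, chr6:78380579-78380708 (+) for Reg3a and chr6:78405025-78405154 (+) for Reg2. Of the bases shown for Reg3b, 24 lie within annotated GENCODE exons of that gene, whose annotated start is upstream of the RefSeq start.
Reg3b: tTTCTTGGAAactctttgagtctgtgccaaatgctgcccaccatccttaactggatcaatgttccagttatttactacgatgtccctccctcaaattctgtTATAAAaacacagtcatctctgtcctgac
Reg3g: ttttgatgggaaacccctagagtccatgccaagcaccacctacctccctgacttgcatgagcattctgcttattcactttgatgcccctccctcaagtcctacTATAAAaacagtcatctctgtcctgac
Reg3a: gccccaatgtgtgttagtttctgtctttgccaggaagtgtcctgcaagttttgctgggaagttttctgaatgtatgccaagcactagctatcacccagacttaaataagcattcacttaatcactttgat
Reg2: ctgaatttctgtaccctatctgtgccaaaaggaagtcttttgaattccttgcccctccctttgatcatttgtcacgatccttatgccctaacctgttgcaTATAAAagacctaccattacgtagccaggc
TATAAA began 29 bases before the start in Reg3b, 27 in Reg3g and 30 in Reg1 and Reg2, and Reg3g and Reg1 each held another match on the minus strand (-161 and 36 from the start). The same box was not found within the searched bases of Reg3a, Reg3d or Reg4. TTCNNNGAA was found in Reg3b, beginning 129 bases before the start, and in Reg3d, 238 bases before it. Across 32851 mouse promoters of the same length, 13.6% held TATAAA and 8.3% held TTCNNNGAA on either strand. The printed stretches of Reg3b and Reg3g had 73.4% identical bases over 128 aligned bases. Over the pairs of the family the range was 53.0% to 74.4%. The highest value, for Reg3a and Reg3g, covered only 82 aligned bases. A match describes letters and says nothing about binding.

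The ratio of Reg3g to Reg3b counts separated the tissues without overlap, and the share of other gene pairs that do so was not computed. It was 0.478, 0.561 and 0.390 in ileal control libraries 1 to 3 and 0.412, 0.386 and 0.494 in ileal KO libraries. In colon it was 0.190, 0.0993 and 0.162 in control and 0.174, 0.187 and 0.234 in KO libraries. The 2 ileal libraries with little muscle RNA lay among the other ileal ratios, although both genes were several times lower there. The mean log2 ratio differed by -1.41 from ileum to colon, with an exact two-sided permutation p of 0.005, the smallest that the 400 arrangements allow. Between genotypes the ratio differed by 0.15 on the log2 scale over both tissues (exact permutation p = 0.52).

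**Figure D2:**
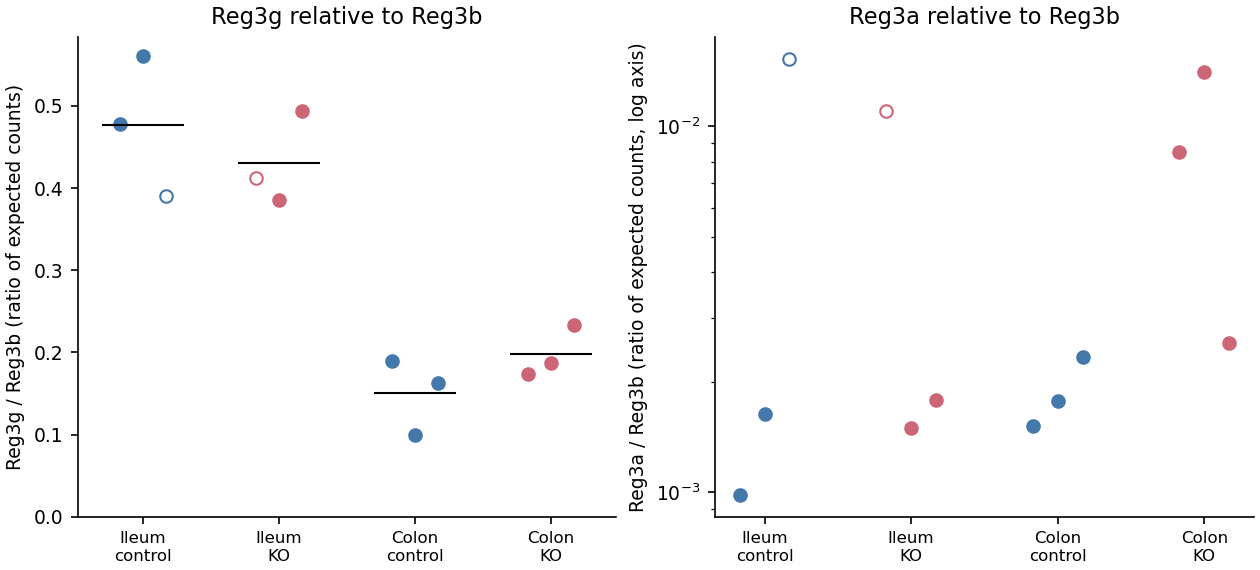
Ratio of Reg3g to Reg3b counts (left, linear axis, lines are means of 3 libraries) and of Reg3a to Reg3b counts (right, log axis) in each library, control in blue and Slc39a8-IEC KO in red, open symbols for the 2 ileal libraries with few muscle transcripts. All ileal Reg3g ratios (0.386 to 0.561) lie above all colonic ones (0.0993 to 0.234).

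Reg3a, a close relative of both, was a minor transcript beside Reg3b and Reg3g. Its levels were 53.1, 106 and 68.4 CPM in ileal control and 73.4, 41.5 and 78.9 CPM in ileal KO libraries 1 to 3. The colonic levels were 5.27, 6.09 and 3.29 CPM for control and 4.85, 8.07 and 4.27 CPM for KO. Ileum was above colon in every library, and the spread within a group stayed near 2-fold. The 2 ileal libraries that were lowest for Reg3b and Reg3g lay between the others for Reg3a. Its tissue difference was therefore the most precise of the family, at -3.96 (SE 0.38, adjusted p = 1.9e-05, edgeR) in control and -3.50 (SE 0.37, adjusted p = 4.0e-05) in KO mice. Without the low-muscle libraries it was -4.05 (SE 0.38) and -3.39 (SE 0.38). The Reg3a to Reg3b ratio ran from 0.000983 to 0.0153 in ileum, with the highest ileal values in those 2 libraries. It did not separate the tissues (exact permutation p = 0.715).

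Reg3d was close to the limit of detection. Ileal control libraries 1 to 3 held 13, 21 and 8 counts, and ileal KO libraries 5, 9 and 18 counts. In colon only control library 3 held any, with 4 counts, and the other 5 libraries held 0. From summed counts the ileal level was 11.4 times the colonic level in control mice (95% exact interval 4.15 to 43.9, for counting error only). In KO mice it was at least 10.9-fold higher in ileum, taking 3 counts over the colonic group as the floor. The edgeR test called the gene lower in colon in control (adjusted p = 0.0332) and KO mice (adjusted p = 0.0137), and also without the low-muscle libraries (adjusted p = 0.0131 and 0.00748). Only its ileal counts carried the gene through the filter on low counts, so these calls add little to the counts themselves. Without colonic control library 2 the adjusted p in control mice was 0.103, and without library 3 no colonic control count was left and the fitted difference went from -3.48 to -7.02.

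Reg4 was also higher in ileum, but its ileal libraries ranked in nearly the opposite order to those of Reg3b. It was at 69.5, 29.8 and 270.0 CPM in ileal control libraries 1 to 3 and at 180, 220 and 31.8 CPM in ileal KO libraries. The colonic levels were 15.6, 11.7 and 11.7 CPM for control and 23.6, 22.7 and 19.2 CPM for KO. The ileal levels spanned a 9-fold range in control mice, while colonic libraries of a group were within 1.33 times of each other. Ileal control library 3, lowest for Reg3b, was highest for Reg4. The tissue difference was -3.24 (SE 0.79, adjusted p = 0.0101, edgeR) in control and -2.72 (SE 0.77, adjusted p = 0.0214) in KO mice. Without ileal control library 3 the control difference was -1.95 (SE 0.60, adjusted p = 0.0320). Without both low-muscle libraries the differences were -1.95 (SE 0.58) in control and -2.52 (SE 0.57) in KO mice.

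Reg1 was detected in every library at low level. Counts were 17, 13 and 71 in ileal control libraries 1 to 3 and 67, 37 and 9 in ileal KO libraries. In colon they were 25, 11 and 11 in control and 9, 6 and 12 in KO libraries. The highest values, 3.01 and 3.99 CPM, came from the 2 ileal libraries with little muscle RNA, and the other ileal libraries overlapped with colon. In control mice the tissue difference of -1.08 (SE 0.75, adjusted p = 0.312, edgeR) did not pass the test. In KO mice it was -2.21 (SE 0.79, adjusted p = 0.0566), and this call was lost when ileal KO library 1 (-1.19, adjusted p = 0.269) was left out. Without both low-muscle libraries the differences were -0.27 (SE 0.61) and -1.18 (SE 0.61, adjusted p = 0.157). It was lost as well without colonic KO library 1, 2 or 3, where the adjusted p was 0.133, 0.160 and 0.113.

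Reg2, the gene most like Reg1 in sequence, was the member with the reverse pattern. Colonic control libraries 1 to 3 held 9, 14 and 8 counts, and colonic KO libraries 15, 2 and 3 counts. Ileal control libraries held 0 counts and the ileal KO libraries 1, 0 and 0. Every colonic library was above every ileal library, and the exact permutation p over both genotypes was 0.005. The summed counts put Reg2 at least 9.49-fold higher in colon than in ileum in control mice (floor of 3 counts over the ileal group). In KO mice the ratio was 19.6, with a 95% counting interval of 3.14 to 814. The filter on low counts removed the gene, and edgeR without that filter gave an adjusted p of 0.00937 in control and 0.0517 in KO mice.

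**Figure D3:**
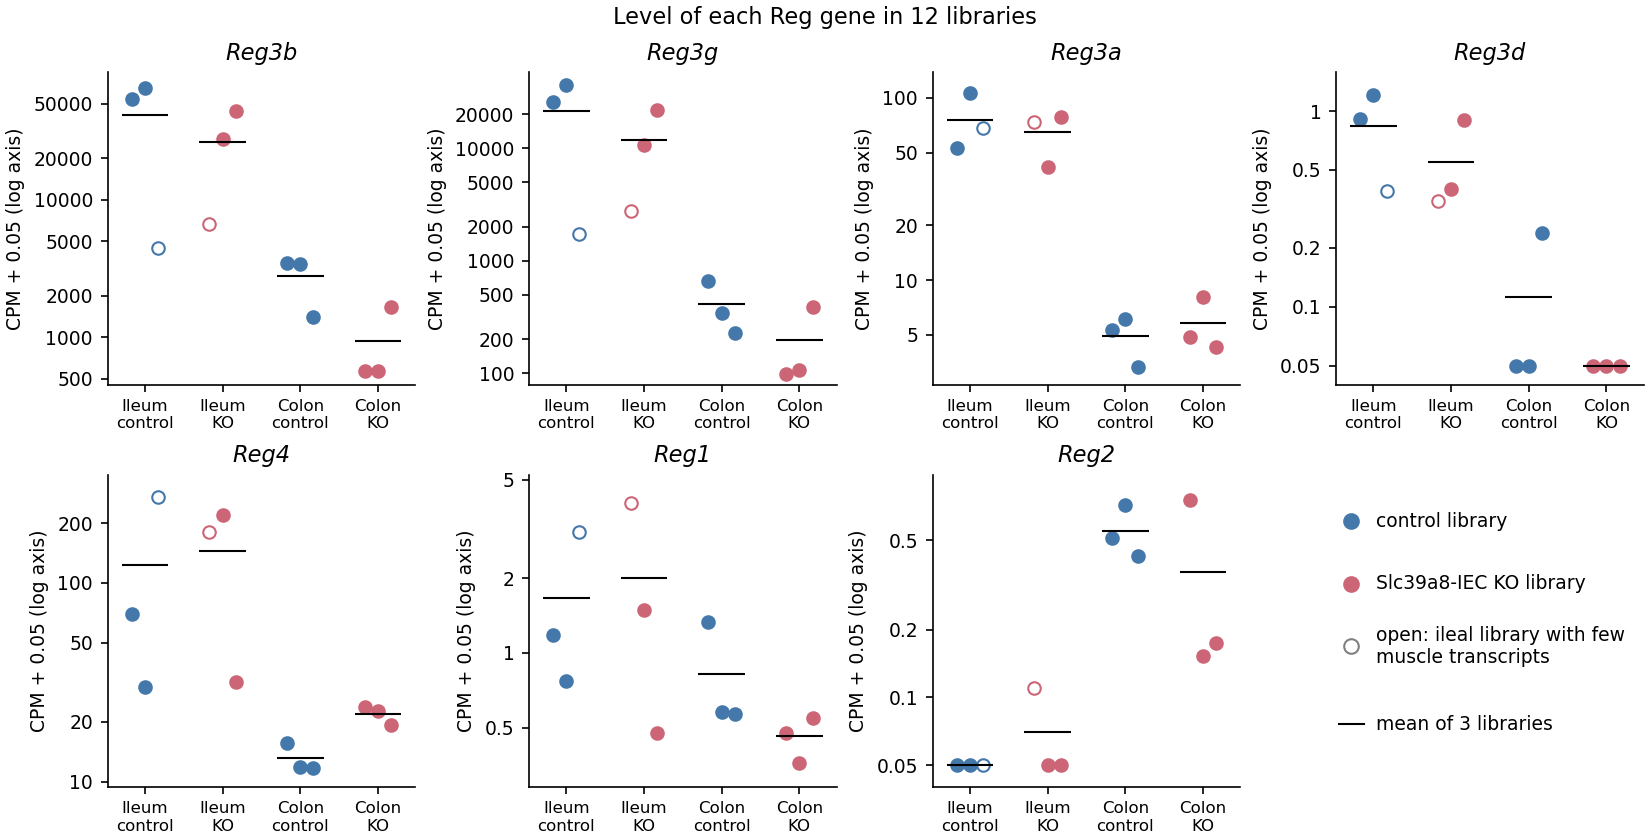
CPM plus 0.05 of the 7 Reg genes on log axes in the 12 libraries, control in blue, Slc39a8-IEC KO in red, with lines at the mean of 3 libraries and open symbols for the 2 ileal libraries with few muscle transcripts. Reg3b, Reg3g, Reg3a, Reg3d and Reg4 are higher in every ileal library, Reg2 is higher in every colonic library, and Reg1 overlaps.

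Across the family, edgeR called 5 of the 6 genes tested lower in colon in control mice (Reg1 not called) and all 6 in KO mice, and none of these higher. Reg2, the member higher in colon, had been removed by the filter on low counts and could not be called here. Without that filter its adjusted p was 0.00937 in control and 0.0517 in KO mice (edgeR). Reg3d passed the filter on its ileal counts alone, so its calls as lower in colon are not independent of the filter. Over all genes tested 35.9% were called in control mice and 37.1% in KO mice, with 19.6% and 20% called lower and 16.2% and 17.1% higher. The median log2 difference of the 6 was -3.69 in control and -4.15 in KO mice, beside 0.02 and 0.01 over all genes. Groups of the 2 tissues did not overlap for 6 of the 7 genes in each genotype, while over all genes the shares were 40.7% (20.3% higher and 20.4% lower in colon) and 50.4% (25.5% and 24.9%). Exact permutation over the 12 libraries gave p = 0.005 for each member but Reg1, at 0.045. A gene high in a single tissue could pass the filter on low counts on that account, so these shares are over genes that passed. Without TMM factors (library size only) the median over all genes moved to 0.24 in control and 0.28 in KO mice, and the same numbers of Reg genes were called lower.

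Per base of transcript, the order of mean levels in ileal control libraries was Reg3b (72067 TPM, the level per transcript length), Reg3g (37865), Reg4 (203), Reg3a (137), Reg1 (2.94), Reg3d (1.44) and Reg2 at 0. In colonic control libraries it was Reg3b (6385), Reg3g (938), Reg4 (23.1), Reg3a (10.8), Reg1 (1.51), Reg2 (1.33) and Reg3d (0.158). Reg3b was above Reg3g in all 12 libraries. Reg4 and Reg3a were neighbours whose ileal ranges overlapped, with Reg4 the higher in 4 of 6 ileal libraries and in all 6 colonic ones. Reg1 and Reg2 in colon, and Reg1 and Reg3d in ileum, also overlapped in range.

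Whether loss of epithelial Slc39a8 changed the family was asked over both tissues and within each. No Reg gene was called. Nor was any other gene by edgeR: 0 of 16558 genes (0%) passed over both tissues, in ileum, in colon or for the difference between tissues. At an unadjusted p under 0.05 the counts were 642 (3.88%), 252 (1.52%), 385 (2.33%) and 169 (1.02%) genes. DESeq2 called 4 genes over both tissues, 2 in ileum, 0 in colon and 1 for the difference, and limma-voom called 1, 1, 0 and 0, with no Reg gene among them. The medians over the 6 tested Reg genes were -0.61 over both tissues, -0.43 in ileum and -0.97 in colon, and those over all genes lay between -0.01 and 0.01.

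Reg3b means were lower in KO mice in both tissues, 41145 ± 32244 against 26186 ± 18810 CPM in ileum (SD, n = 3) and 2772 ± 1183 against 937 ± 635 CPM in colon. The groups overlapped in each tissue, since colonic KO library 3 (1670 CPM) was above colonic control library 3 (1407 CPM). The log2 difference over both tissues was -1.11 (SE 0.61, adjusted p = 0.998, edgeR), with an exact permutation p of 0.25. It was -0.65 (SE 0.87) in ileum and -1.57 (SE 0.88) in colon, both with an adjusted p of 1. Leaving out a single library moved the ileal value between -0.16 (without ileal control library 2) and -1.26 (without ileal KO library 3), and the colonic value between -1.31 (without colonic KO library 2) and -2.27 (without colonic KO library 3). The 6 colonic libraries alone gave -1.57 with an SE of 0.46 (adjusted p = 0.549). Without the 2 ileal libraries with little muscle RNA the difference over both tissues was -1.23 with a smaller error (SE 0.36, adjusted p = 0.339, exact permutation p = 0.0333), and in ileum it was -0.74 (SE 0.56). Its adjusted p ran from 0.339 to 1 over all alternatives.

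Reg3g means were 21337 ± 17792 against 11745 ± 9575 CPM in ileum and 410.0 ± 225 against 199 ± 166 CPM in colon, control first. The colonic groups overlapped here too. The log2 difference was -0.95 over both tissues (SE 0.65, adjusted p = 0.998, edgeR, exact permutation p = 0.345), -0.86 in ileum (SE 0.96) and -1.04 in colon (SE 0.97). Leaving out a single library moved the ileal value between -0.23 (without ileal control library 2) and -1.67 (without ileal KO library 3), and the colonic value between -0.52 (without colonic control library 1) and -1.98 (without colonic KO library 3). The 6 colonic libraries alone gave -1.05 (SE 0.53, adjusted p = 0.708). In the main fits on all 12 libraries, the differences of Reg3b and Reg3g lay within 2 standard errors of 0. They also lay within 2 standard errors of a 2-fold decrease. Reg3b went past 2 standard errors of 0 in the 6 colonic libraries alone (-1.57, SE 0.46, adjusted p = 0.549, edgeR). It also did so over both tissues without the low-muscle libraries (-1.23, SE 0.36, adjusted p = 0.339, edgeR). Without the low-muscle libraries the Reg3g difference was -0.95 in ileum (SE 0.66), and over both tissues it exceeded 2 standard errors (SE 0.40, adjusted p = 0.456).

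Reg4 and Reg1 were the members whose colonic groups did not overlap between genotypes in CPM. Reg4 was at 13.0 ± 2.24 CPM in colonic control and 21.8 ± 2.29 CPM in colonic KO libraries (SD, n = 3), a log2 difference of 0.75 (SE 0.74, adjusted p = 1, edgeR). A fit on the 6 colonic libraries alone gave 0.74 with an SE of 0.15 and an adjusted p of 0.511, the lowest of its alternatives, which ran from 0.511 to 1. Reg1 was at 0.775 ± 0.437 CPM in colonic control and 0.411 ± 0.0943 CPM in colonic KO libraries, a log2 difference of -0.89 (SE 0.80, adjusted p = 1). Its lowest control and highest KO libraries were at 0.517 and 0.498 CPM. Before scaling its counts overlapped, at 25, 11 and 11 in control and 9, 6 and 12 in KO libraries. Exact permutation gave p = 0.1 for each, which is the smallest that 3 against 3 allows, and 12.8% of all genes were separated in colon (6.98% higher and 5.85% lower in KO). In ileum, where 3.70% of all genes were separated (2.13% higher and 1.57% lower in KO), the genotypes overlapped for every Reg gene. Reg4 differed by 0.22 in ileum (SE 0.72) and by 0.48 over both tissues (SE 0.50, adjusted p = 0.998, edgeR). Without the low-muscle libraries these values were 1.34 (SE 0.63, adjusted p = 0.952) and 1.0 (SE 0.40, adjusted p = 0.448). The ileal libraries left in that fit were at 69.5 and 29.8 CPM for control and 220 and 31.8 CPM for KO. The 220 CPM came from ileal KO library 2, the one with 2630 CPM of Car1. The ileal Reg4 value was 1.54 without ileal control library 3 alone, -0.24 without ileal control library 2 and -0.22 without ileal KO library 2. Reg1 differed by 0.24 in ileum (SE 0.73), by 0.03 without the low-muscle libraries, and by 1.07 and -0.79 when ileal control library 3 or ileal KO library 1 alone was left out.

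Reg3a was nearly level between genotypes, at 75.9 ± 27.3 against 64.6 ± 20.2 CPM in ileum and 4.88 ± 1.44 against 5.73 ± 2.05 CPM in colon. In ileum its log2 difference was -0.23 (SE 0.33), and -0.42 (SE 0.39) without the low-muscle libraries. Its log2 difference over both tissues was -0.02 with an SE of 0.24 (adjusted p = 0.998, edgeR), the narrowest error of the family. The Reg3a to Reg3b ratio in colon was 0.00151, 0.00178 and 0.00234 in control libraries and 0.00853, 0.0141 and 0.00256 in KO libraries. These did not overlap (exact permutation p = 0.1, the smallest possible), but the nearest values were 0.00234 and 0.00256. The colonic groups of Reg3a and of Reg3b each overlapped. Among single genes 12.8% were separated in colon, and no such share was computed for ratios. Reg3d held 42 counts in ileal control and 32 in ileal KO libraries, a difference of -0.63 (SE 0.82, adjusted p = 1), and of -0.78 (SE 0.85) without the low-muscle libraries. Reg2 held 31 counts in colonic control and 20 in colonic KO libraries, with 15 of the 20 in KO library 1 (exact permutation p = 0.4). The difference of the KO effect between colon and ileum passed the test for no Reg gene (edgeR), with log2 values from -1.13 for Reg1 to 0.52 for Reg4 among the 5 genes other than Reg3d, whose colonic KO libraries held 0 counts.

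**Figure D4:**
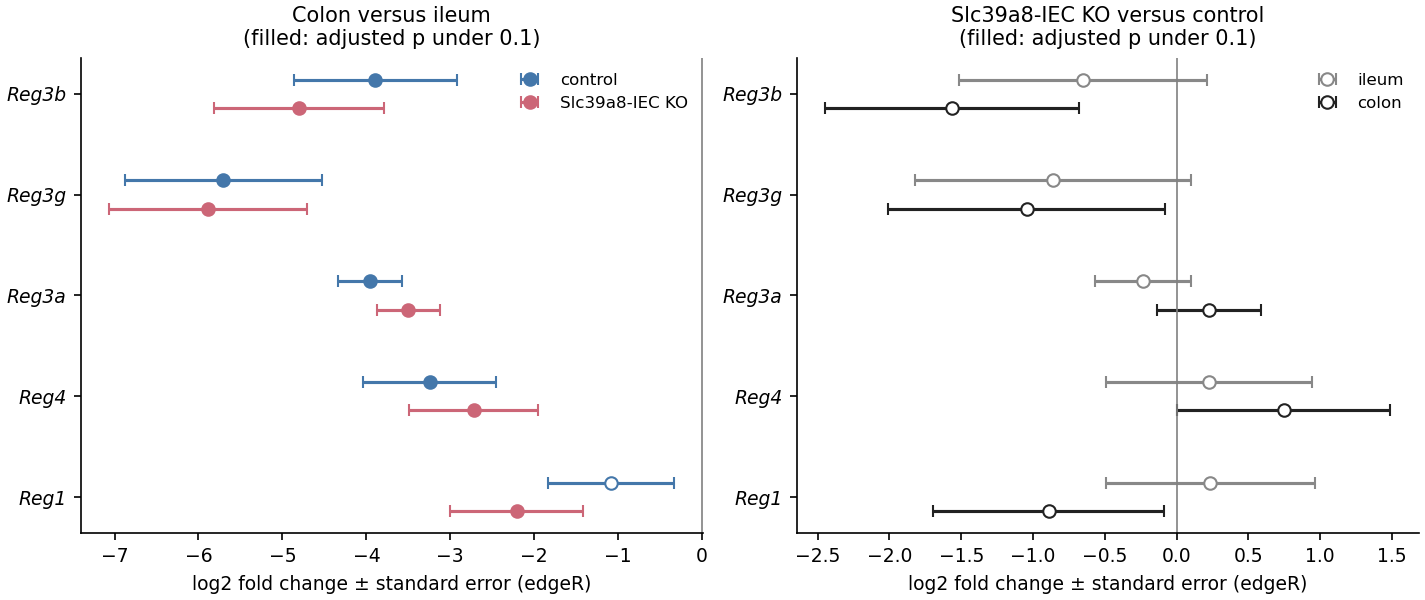
Fitted log2 fold changes with standard errors (edgeR) of the 5 Reg genes with counts in every library, colon versus ileum on the left and KO versus control on the right, filled symbols for an adjusted p under 0.1. All tissue differences but that of Reg1 in control mice pass the threshold, and no KO difference does.

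Much of the spread of Reg3b and Reg3g within ileum came with ileal control library 3 and ileal KO library 1. They held 4463 and 6655 CPM of Reg3b against 27724 to 65009 in the other 4 ileal libraries. For Reg3g the values were 1741 and 2740 CPM against 10692 to 36477. Reg1 lay the other way, at 3.01 and 3.99 CPM against 0.426 to 1.44, and Reg3a lay inside the range of the others. Reg4 was at 270.0 and 180 CPM against 29.8 to 220, and Reg3d at 0.340 and 0.298 CPM against 0.351 to 1.17. All 6 smooth muscle genes were lower in both libraries than in the other 4, with a summed level of 34.1 and 20.1 against 1813 to 2641 CPM. All 5 crypt and dividing cell genes were higher in both, at a summed 1224 and 855 against 280 to 400 CPM, as were 7 of 9 Paneth cell genes, at 18117 and 14615 against 6040 to 10338 CPM. Of 16 epithelial genes known to be induced together with Reg3 genes by IL-22 or bacteria, 15 were lower in both, at a summed 2581 and 2785 against 6275 to 10115 CPM. Saa1, an acute phase gene of that list named here after its values were seen, was at 4.76 and 18.6 CPM against 438 to 2235. Over all genes 23.2% were higher and 27.2% lower in both libraries. These libraries were 1 control and 1 KO, and what part these other transcripts had in the Reg levels was not tested.

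**Figure D5:**
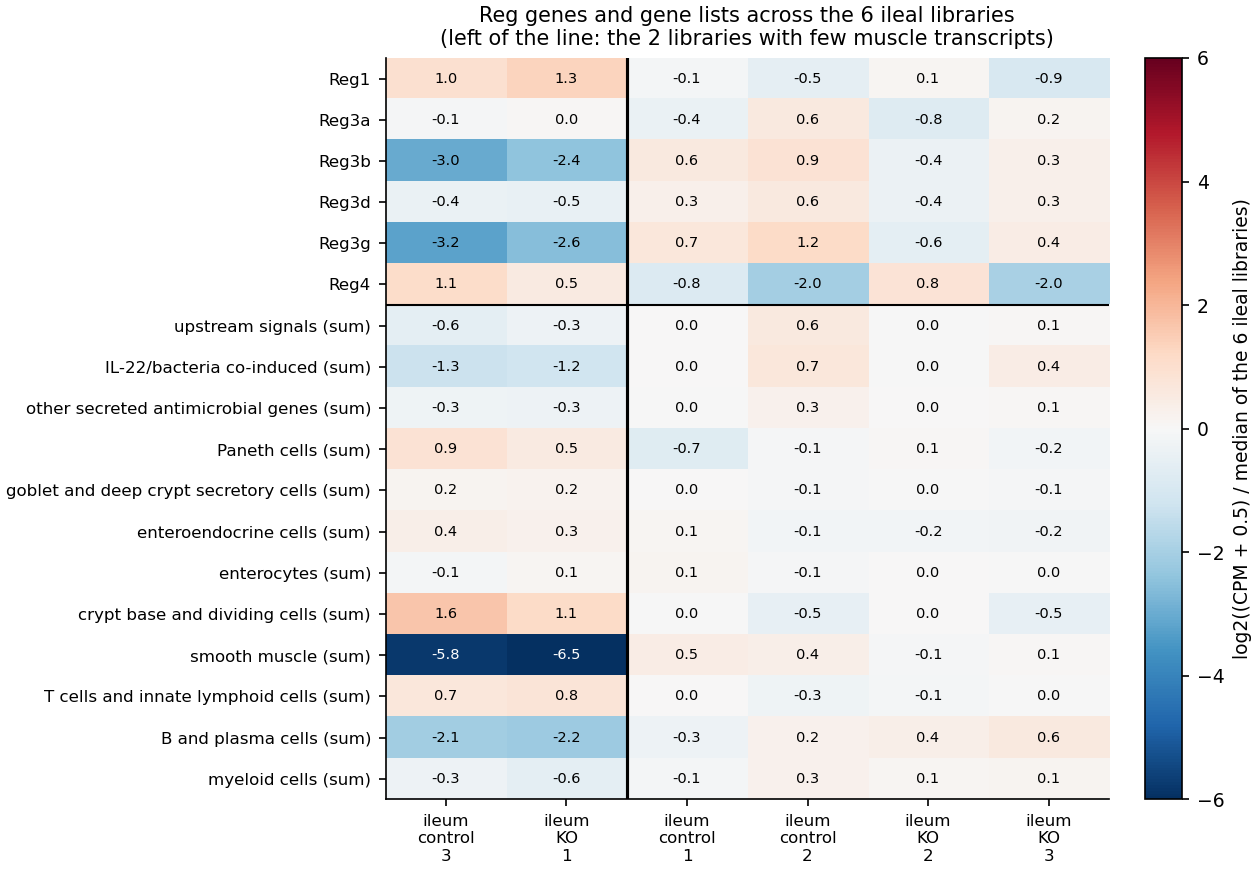
Log2 ratio of each ileal library to the median of the 6 (CPM plus 0.5), for the 6 Reg genes tested and for summed gene lists, with the 2 libraries of low muscle content left of the vertical line. Reg3b and Reg3g are between -3.22 and -2.43 log2 units from the median there and the co-induced list at -1.28 and -1.17, while Reg1, Reg4 and the crypt and Paneth cell lists are above it.

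The genes that signal to the Reg3 genes were read from a list of 20, of which 15 were tested. In colon of control mice 3 were called higher and 4 lower, and the median difference was -0.15 beside 0.02 over all genes. Tlr2, a receptor for bacterial lipopeptides, was 3.67 log2 units higher (SE 0.38, adjusted p = 2.9e-05, edgeR) and Tlr4, the lipopolysaccharide receptor, 2.82 units higher (SE 0.47, adjusted p = 0.000916). Socs3, a feedback inhibitor induced by STAT3, differed by -2.74 (SE 0.86, adjusted p = 0.0337), in the same direction as Reg3b and Reg3g. In ileal control library 3 Socs3 was at 18.7 CPM, within the 11.9 to 22.2 CPM of colonic control libraries. Il1b, which encodes an inflammatory cytokine, differed by -2.54 (SE 0.82, adjusted p = 0.0385). In KO mice 3 were again called higher and 4 lower, but Il1b was not called (-0.99, SE 0.77, adjusted p = 0.362). The cytokine genes Il22, Il17a, Il23a and Il6, and the receptor gene Il23r, were too low to be tested, with at most 0.141, 1.11, 0.238, 0.222 and 0.273 CPM in any library.

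Of the 16 co-induced epithelial genes 12 were tested, and 6 were called lower in colon and none higher in control mice, against 7 lower in KO mice. The medians were -1.43 and -1.63. Nos2, the inducible nitric oxide synthase, showed the largest difference at -5.60 (SE 0.97, adjusted p = 0.0013, edgeR), from 353 ± 284 CPM in ileum to 7.26 ± 4.59 in colon. Duoxa2, the maturation factor of the peroxide-producing oxidase DUOX2, differed by -2.95 (SE 1.0, adjusted p = 0.0459). Tifa, an adaptor in sensing of bacterial sugars, differed by -2.17 (SE 0.64, adjusted p = 0.0259) and Ido1, a tryptophan-degrading enzyme, by -1.86 (SE 0.49, adjusted p = 0.0149). In ileal control library 3, Duoxa2 (20.3 CPM) and Tifa (47.5 CPM) lay within their colonic control ranges (11.6 to 52.0 and 23.4 to 55.5 CPM).

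Among 13 other secreted antimicrobial genes, 12 were tested, with 1 called higher and 5 lower in colon in each genotype and medians of -0.39 and -0.80. Lyz1, the Paneth cell lysozyme, fell from 3353 ± 2600 CPM in ileum to 3.38 ± 1.15 CPM in colon (-9.95, SE 0.69, adjusted p = 1.4e-06, edgeR). The Paneth cell list, which shares Lyz1, Itln1, Pla2g2a and Ang4 with this list, had 8 of 9 genes called lower in each genotype. Defa24, an alpha-defensin gene, was at 3105 ± 1297 CPM in ileum and 1.36 ± 0.695 in colon of control mice.

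For Reg4, the markers of its known cell types are of interest. Among 9 enteroendocrine genes 3 were called higher in colon and 3 lower in control mice. Chga, a granule protein of these cells, was 2.25 log2 units higher (SE 0.42, adjusted p = 0.00217, edgeR). Chgb was 1.64 units higher (SE 0.44, adjusted p = 0.0164). Tph1 was at 7.83 ± 6.43 CPM in ileum and 49.3 ± 10.4 CPM in colon. Gcg, the proglucagon gene, differed by -1.13 (SE 0.32, adjusted p = 0.0228). Among 9 goblet and deep crypt secretory genes 4 were called higher and 5 lower in each genotype. The largest differences in control mice were lower levels in colon, for Tff3, a trefoil peptide (-1.44, SE 0.17, adjusted p = 9.3e-05), the mucus protein gene Fcgbp (-1.40, SE 0.27, adjusted p = 0.00239) and Zg16, a lectin (-1.10, SE 0.22, adjusted p = 0.00282). Muc2, the main gel-forming mucin, was 1.0 higher (SE 0.20, adjusted p = 0.00356). For Reg1 and Reg2, 13 pancreatic acinar genes were read as a check on pancreatic RNA. Of the 13, 9 stayed under 3 counts in every library and 5 were at 0 in all 12, among them the lipase gene Pnlip. Only Cela1 was tested, and it was 2.57 log2 units higher in colon (SE 0.21, adjusted p = 5.6e-06, edgeR). Extl3 and Cd44, proposed receptors of Reg proteins, were 0.64 (SE 0.18, adjusted p = 0.0232) and 0.82 (SE 0.24, adjusted p = 0.0245) higher in colon. No gene of any list was called between genotypes by edgeR.

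Within groups, the genes whose levels ran most closely with each Reg gene were found from log2 CPM after the group means were taken away, over 12 libraries. Reg3b and Reg3g had a Pearson correlation of 0.98 with each other, while Reg3a correlated at 0.06 with Reg3b. Reg4 correlated at 0.84 with Reg1 and at -0.74 with Reg3b. Of all other genes, Iffo1 was the closest to both Reg3b (0.98) and Reg3g (0.99), followed by Lair1 and Sept4 for Reg3b and by Rab8b and Pmepa1 for Reg3g. Zfp799 was closest to Reg4 (0.98), Gm38057 to Reg1 (0.96), Slc2a3 to Reg3d (0.97) and Rn7s1 to Reg3a (0.91). All these values share the same 12 libraries, and the 2 ileal libraries with little muscle RNA lie far from their group means.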

How the data were processed

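RNA of ileal and colonic mucosa was analysed in 12 libraries, mapped to tissue, genotype and replicate by their labels. The authors deposited a table of expected counts, estimated counts per gene from reads aligned to the genome, not normalized. The labels name STAR and mm10. For RNA-seq the study's reporting summary names STAR with reads of a single genomic position kept, removal of duplicates with UMI-tools, and FeatureCounts. FeatureCounts by default gives whole numbers while some values here are fractional, so whether this table came from that step is not known. Of 53807 lines, 92 spike-in lines held 0 counts and were left out, and 93.7% of values were whole within 0.005.

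Expected counts were rounded. edgeR 4.0.16 (R 4.3.3) with filterByExpr on the 4 groups kept 16558 genes, of which 6 were Reg genes. TMM factors, glmQLFit and glmQLFTest were used, with Benjamini-Hochberg adjustment over these genes and a threshold of 0.1. Genotype over both tissues had tissue as an additive term, and all other comparisons came from a model of the 4 groups, with shared ileal or colonic groups. Adjusted p-values are from edgeR unless DESeq2 1.42.0 or limma-voom (limma 3.58.1) is named. Standard errors were derived from the F statistic. Two-sided exact permutation tests used log2 of CPM plus 0.5, exchanged within strata. The labels do not say whether both tissues came from the same mice, and all tests take libraries as independent. Levels between genes were compared per base of the longest protein-coding GENCODE M21 transcript. Counting intervals and floors (3 counts) cover counting error only. Promoters came from RefSeq (GRCm38.p6, all 7 genes matched). Correlations used a prior count of 2 and genes with a mean of at least 1 CPM.

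The members, the 14 other lists (120 genes) and the alternatives were chosen with earlier results of these data known. From a list, at most 4 genes are named, out of the 4 past the threshold with the largest tissue difference in control mice. For some lists not all of these are named. For likeness, genes are named out of the 3 most like each tested Reg gene. Fabp6 and Car1 also mark the tissues. Acta2, Pnlip, Il22, Il17a, Il23a, Il23r, Il6 and Saa1 were picked outside this rule after their values were seen. Steps were tested on simulated data. Plots were made in matplotlib 3.10.9 (Python 3.11.15).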

Additional observations from a re-analysis of the deposited data

How the results depend on the processing

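Of 799 log2 differences of Reg genes recomputed under 25 alternatives, 767 kept their direction and side of the threshold, 8 lost a call and 24 turned sign, all of the latter in genotype comparisons that passed in no setting. No Reg gene was called between genotypes in any alternative run. Genes called over both tissues numbered 4 with DESeq2, 1 with limma-voom, 5 without the 2 low-muscle ileal libraries and 0 to 1 with a library left out. In ileum they numbered 2, 1, 3 and 0 to 1, in colon 1 when only its 6 libraries were fitted, and for the difference 1 with DESeq2. Sign turned for Reg1 in ileum with limma-voom (-0.16), for Reg3a over both tissues with library size only (0.0558) and with the replicate block (0.0210), and for the Reg4 difference between tissues without the low-muscle libraries (-0.58), and the cause was not tested. Leaving out single libraries gave, over both tissues, -0.84 to 0.0396 for Reg1 and -0.18 to 0.16 for Reg3a, in ileum -0.79 to 1.07 for Reg1, -0.43 to 0.0883 for Reg3a and -0.24 to 1.54 for Reg4, in colon -0.10 to 0.42 for Reg3a, and for the difference -1.11 to 0.62 for Reg3g and -0.78 to 0.98 for Reg4. Between tissues, Reg3a, Reg3b, Reg3g and Reg4 were called in every alternative, at Reg3b -4.44 to -3.33 in control and -5.51 to -4.20 in KO mice. Reg3g in KO mice was -5.08 without ileal KO library 3 and -6.82 without colonic KO library 3, and Reg3b was -4.20 and -5.51 without the same libraries. Reg3g in control mice was -5.07 without ileal control library 2 and Reg1 -0.27 without ileal control library 3. The Reg1 call in KO mice was also lost with limma-voom (-1.60, adjusted p = 0.2), at a threshold of 0.05 and without the low-muscle libraries (-1.18, adjusted p = 0.157). With library size only, calls between tissues in control mice split 4155 higher and 2102 lower instead of 2689 and 3251, and with upper-quartile factors 3373 and 2741. In KO mice they split 4637 and 1908, and 3678 and 2634, instead of 2837 and 3312. These scalings moved the median over all genes between tissues to 0.24 and 0.28, and to 0.12 and 0.14, and left the calls of Reg genes at 5 and 6. Same-numbered libraries deviated from their group means with correlations of -0.69 to 0.40, a range set by ileal control against ileal KO libraries. Between ileum and colon the correlations were -0.05, 0.16 and -0.08 in control mice. In KO mice they were 0.19, 0.05 and 0.25. Whether same-numbered libraries of a genotype came from the same mouse was not tested. With the replicate block, 5333 and 5558 genes instead of 5940 and 6149 were called between tissues, with 5 and 6 Reg genes as before, and 0 between genotypes. Taking Reg3b and Reg3g out of the library sizes, added after the data were seen, changed no count of calls. Depth limits Reg1, Reg2 and Reg3d, at 71 counts or fewer in any library.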

Other observations

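Markers of the other mucosal cells also differed between tissues in control mice. Of 8 enterocyte genes edgeR called 2 higher and 6 lower in colon, and Apoa1, an apolipoprotein of chylomicrons, changed by -11.50 on the log2 scale (SE 0.90, adjusted p = 4.0e-06). Of 5 crypt base and dividing cell genes 4 were called lower, with Olfm4 at 343 ± 355 CPM in ileum and 0.0160 ± 0.0277 CPM in colon. Of 6 T cell and innate lymphoid cell genes, which include sources of IL-22, 5 were called lower, and Cd3e changed by -2.13 (SE 0.54, adjusted p = 0.0123). Of 4 B and plasma cell genes 1 was called lower (Mzb1, -2.83, SE 0.59, adjusted p = 0.00406), and of 4 myeloid genes tested 2 were called lower (Itgam, -2.75, SE 0.30, adjusted p = 4.1e-05, and Csf1r). None of the 6 smooth muscle genes was called. In KO mice the counts were 1 higher and 6 lower for enterocytes, 4 lower for crypt genes, 3 for T cells, 2 for B and plasma cells, 2 for myeloid cells and 0 for muscle, and 4 enteroendocrine genes were called higher and 2 lower.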
